A study of Mus musculus with 6 samples.

Results

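The hypoxia response and glycolysis genes examined here are 34 mouse genes named by symbol: the alpha subunit of the hypoxia-inducible factor HIF-1, the enzymes that sense oxygen for it, genes that it is known to switch on, and the enzymes, transporters and regulators of glycolysis. A gene was measured where a probe set names it alone in the platform annotation, and the brightest such probe set by mean over the arrays was used. This gave 31 measured genes of the 34, among 19938 genes tested. Gpi1 and Eno1 have no probe set under their symbols in the annotation used here, and the 25 probe sets that name Gapdh also name other genes, so these 3 glycolytic enzyme genes were not analysed here.

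Transcript levels came from 6 Affymetrix arrays of URE cells, a mouse leukaemia line derived from animals that lack an upstream regulatory element of the PU.1 gene, a deletion shared by both groups. Cells carried a lentiviral hairpin against Hlx (shHLX, 3 arrays) or against luciferase (shControl, 3 arrays) together with a green fluorescent protein, and were sorted on that fluorescence. Cytokine-containing conditioned media (WEHI and BHK supernatant) were used for culture in both groups, and interleukin-3, interleukin-6 and stem cell factor were present during infection. The labels name no oxygen level, no hairpin sequence and no batch, and the study asked what Hlx does in blood cell differentiation and tumour formation.

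Hlx itself gave 10.08, 10.06 and 10.17 on the log2 scale on the arrays labelled shHLX, against 10.21, 10.12 and 10.20 on the shControl arrays. The groups overlapped (difference -0.07, exact two-sided permutation p = 0.2, and 0.1 is the lowest p this design allows). The arrays therefore show no fall of the targeted transcript beyond the spread between replicates, and each direction below is that of arrays as labelled. Array medians lay between 7.02 and 7.10. The second principal component (18.1% of the variance) separated the arrays shHLX 3 and shControl 1 from the remaining 4. The 10 myeloid markers averaged 6.06 to 13.95 on the arrays labelled shHLX and 6.01 to 14.00 on the shControl arrays. Limma called 3 of them, where 3.75% of all genes tested were called higher and 2.43% lower. Mpo (9.80 with the Hlx hairpin and 11.26 with the control hairpin) and Kit (10.03 and 10.75), both genes of early myeloid cells, were lower. Itgam (8.74 and 7.99), a gene of more mature myeloid cells, was higher. The rest were not called, with differences from -0.10 (Prtn3) to 0.06 (Ptprc) on the log2 scale, Csf3r at -0.08 and Cebpa at 0.03 among them. Whether the markers shift as a set was not tested. The part of these marker differences in the results below was not tested. Lymphoid, erythroid and stromal markers averaged at most 7.83 on the arrays labelled shHLX and 7.92 on the shControl arrays, with 0 of 12 measured called by limma and 1, Epor, at an unadjusted p under 0.05, where 19.4% of all genes tested lay. No detection values were used here, so which dim genes lie above background is unknown.

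HIF-1 is a pair of proteins whose alpha subunit is made continuously and destroyed when oxygen is present. Prolyl hydroxylases of the EGLN family mark it for destruction, and some of them are themselves among the genes that HIF-1 induces. The stabilised factor binds a short DNA element and raises transcripts for glucose uptake, glycolysis, acid handling, blood vessel growth and mitochondrial removal. Leukaemia cells are known to use glycolysis heavily also where oxygen is plentiful. Transcript arrays measure none of the protein steps. In RNA from many cells, fewer cells expressing a gene and less RNA per cell cannot be told apart.

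Small rises of several hypoxia genes and a larger fall of Car9 were what these arrays showed. Of the 10 glycolytic enzyme genes measured 0 were called, with differences from -0.02 to 0.16 on the log2 scale. The Hk1 value among them depended on the probe set read. Whether the roles differ from each other was not tested. Hif1a, Egln1, Ddit4 and Slc2a3 rose by 1.13-fold to 1.20-fold, and Car9, which encodes a membrane carbonic anhydrase that handles acid outside the cell, fell to 69.5% of control. So 4 of the 31 measured genes (12.9%) were called higher by limma at an adjusted p under 0.05, against 3.75% of all genes tested. The genes were chosen with earlier results of these data known, so this and the shares below describe the list and do not test it. One gene was called lower, against 2.43% of all genes tested. The 3 arrays labelled shHLX lay wholly above the 3 shControl arrays for 13 of the 31 (41.9%), against 14.7% of all genes, and wholly below for 2, against 11.4%. Of these genes 29 lie above the median gene's mean signal, and among all genes above that median 6.17% were called higher and 24.7% lay wholly above. Of the 31 differences 22 (71.0%) were positive, against 45.4% for all genes and 56.2% for genes above the median signal. Their median was 0.07 on the log2 scale, against -0.01 for all genes and 0.02 for genes above the median signal.

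Only Car9 kept its call in every alternative analysis run. Hif1a lost its call without any 1 array except shControl 1 (limma adjusted p up to 0.136), Slc2a3 without any 1 except shHLX 2 (up to 0.0944), and Egln1 (0.0906 to 0.151) and Ddit4 (0.0715 to 0.189) without any 1 of the 6. The count of genes called higher therefore ran from 0 (without shHLX 1, shHLX 3, shControl 2 or shControl 3) through 1 (without shControl 1) to 2 (Slc2a3 and P4ha2, without shHLX 2), and it was 0 with shControl 1 and shHLX 3 left out together. With 1 array left out, 2.21% to 2.73% of all genes were called higher. Letting the variance depend on signal intensity raised the count of members called higher to 11, where 7.21% of all genes were called higher. Without variance moderation the count was again 4, where 2.67% of all genes were called higher. The genes called were then Hif1a, Egln1, Egln3 and Ero1a, without Ddit4 and Slc2a3. No measured member called in the analysis with all arrays changed direction under any alternative.

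**Figure D1:**
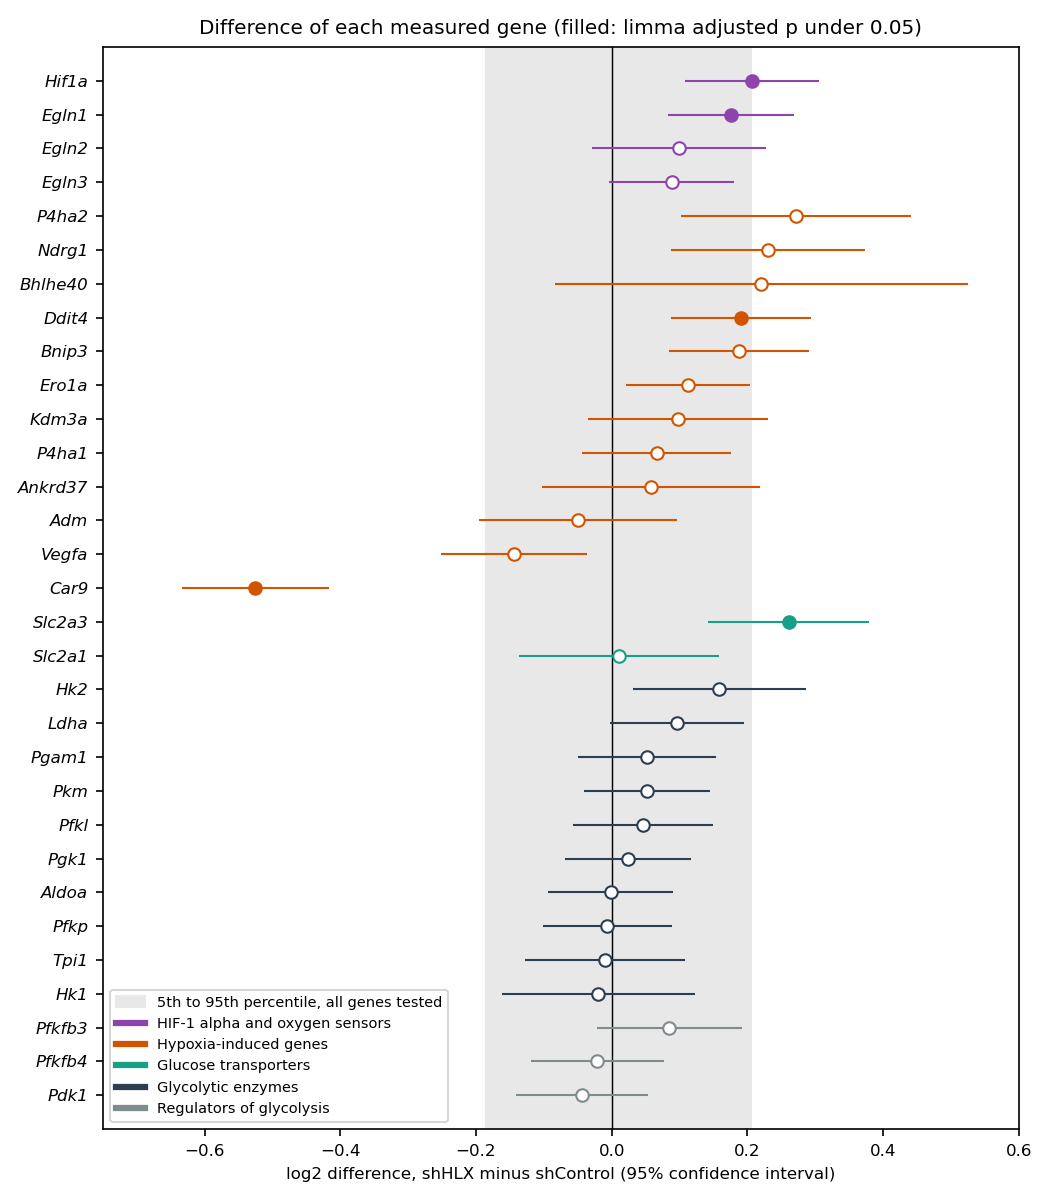
The log2 difference of each of the 31 measured genes, shHLX minus shControl, with its 95% confidence interval from limma, ordered by role and coloured by it. Filled points passed limma at an adjusted p under 0.05, and the grey band spans the 5th to 95th percentile of all genes tested (-0.19 to 0.21). Car9 lies alone at -0.53, and the 4 filled points to the right of 0 lie between 0.18 and 0.26.

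The factor and its oxygen sensors came first. Hif1a, the oxygen-regulated subunit, gave 11.91, 11.93 and 11.94 on the arrays labelled shHLX, against 11.77, 11.70 and 11.70 on the shControl arrays. Every shHLX value was above every control value, and the SD over the 3 shHLX arrays was 0.0159. The rise was 1.15-fold (95% confidence interval 1.08 to 1.24, limma adjusted p = 0.0297). Egln1 encodes PHD2, the main prolyl hydroxylase that marks HIF-1 alpha for destruction. It gave 11.01, 10.98 and 10.97 with the Hlx hairpin, against 10.81, 10.80 and 10.82 with the control hairpin. The groups were well separated for a rise of only 1.13-fold (1.06 to 1.21, limma adjusted p = 0.0436).

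Both other hydroxylase genes pointed the same way without passing the test with the settings of the report, though Egln3 passed in 2 of the 20 alternatives. Egln3, the family member most strongly induced by hypoxia in many cells, gave 12.98, 13.02 and 12.99 on the arrays labelled shHLX, against 12.90, 12.90 and 12.92 on the shControl arrays. Its groups did not overlap, and the ratio was 1.06 (0.998 to 1.13, limma adjusted p = 0.275). Egln2 gave 10.08, 10.16 and 10.03 in shHLX cells, against 9.94, 10.07 and 9.96 in control cells. Here the groups overlapped through shControl 2, and the ratio was 1.07 (0.98 to 1.17). Whether the change of Egln1 differed from those of Egln2 and Egln3 was not tested.

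**Figure D2:**
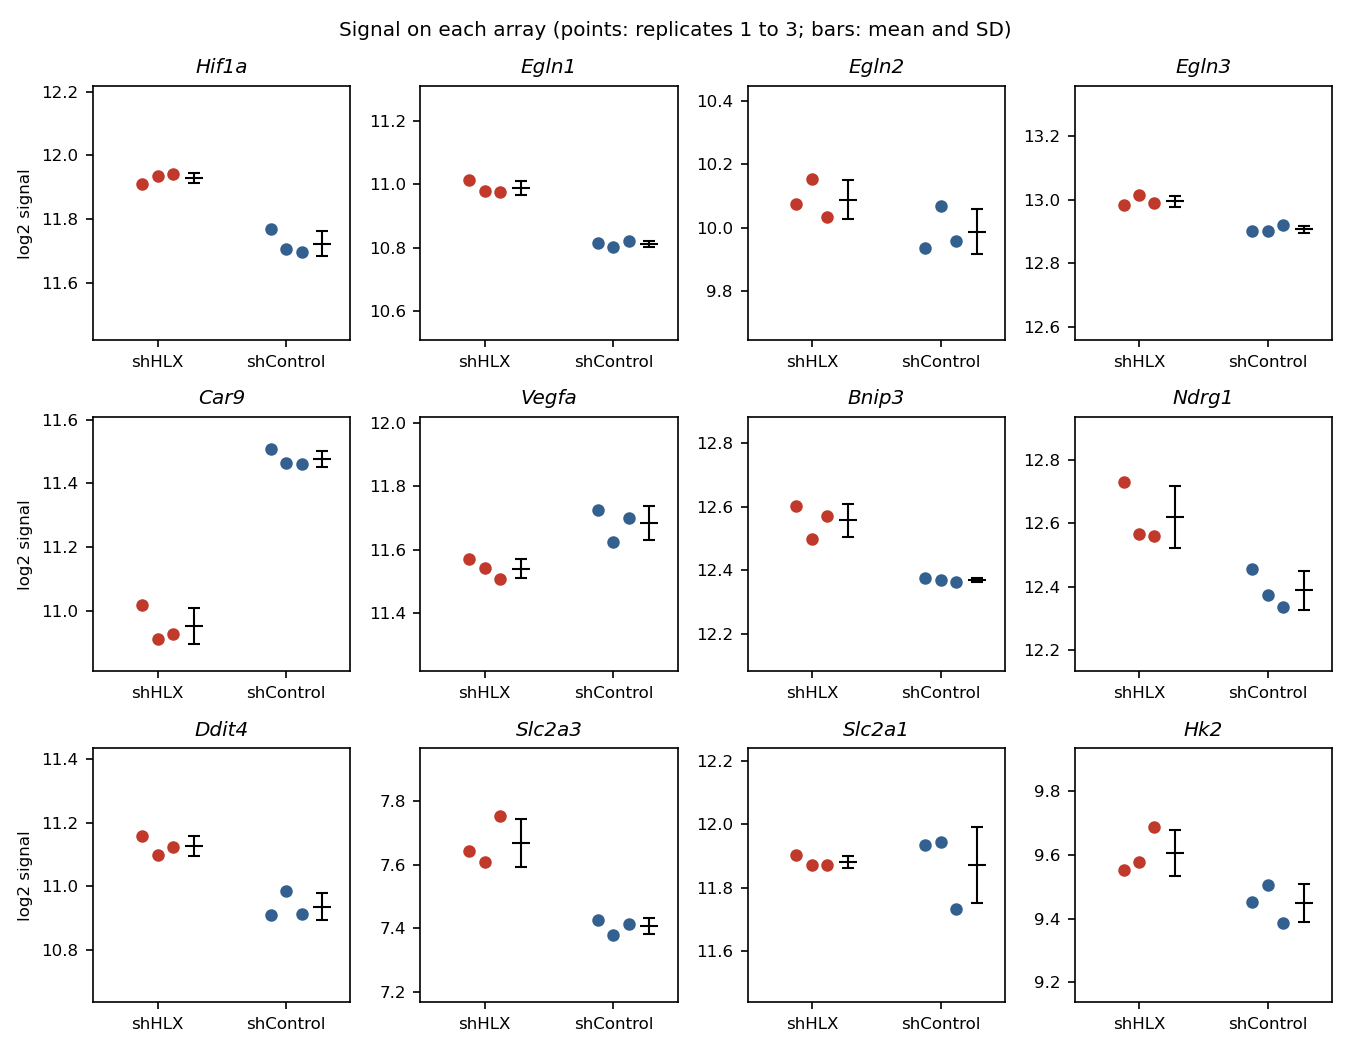
The log2 signal of 12 of the genes on each array, shHLX arrays in red and shControl arrays in blue, with the mean and SD of each group as black bars. All panels span the same height on the log2 scale. The groups are separated for Hif1a, Egln1, Egln3, Car9, Vegfa, Bnip3, Ndrg1, Ddit4, Slc2a3 and Hk2 and overlap for Egln2 and Slc2a1.

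Genes that hypoxia is known to induce did not move as a block. Car9, one of the transcripts most dependent on HIF-1 in other cells, gave 11.02, 10.91 and 10.93 on the arrays labelled shHLX, against 11.51, 11.46 and 11.46 on the shControl arrays. This was the largest difference among the 31 genes, at -0.53 on the log2 scale (limma adjusted p = 0.000489, with an SE of 0.05). Its 95% confidence interval ran from 64.4% to 74.9% of control. Over the 20 alternatives the difference stayed between -0.56 and -0.50, with adjusted p up to 0.0123. Vegfa, which encodes the growth factor that draws in blood vessels, also read lower on each shHLX array, at 11.57, 11.54 and 11.51 against 11.73, 11.62 and 11.70 in the controls. It did not pass (90.5% of control, 84.0% to 97.5%, limma adjusted p = 0.136).

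Ddit4 pointed the other way. It encodes REDD1, a stress protein that restrains the growth kinase mTORC1. Signals were 11.16, 11.10 and 11.12 with the Hlx hairpin, against 10.91, 10.98 and 10.91 with the control hairpin. All shHLX values exceeded all control values, and the rise was 1.14-fold (1.06 to 1.23, limma adjusted p = 0.0482), just inside the threshold.

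Bnip3 fell just outside it. Its product is a mitochondrial outer membrane protein that directs removal of mitochondria. The brighter of its probe sets gave 12.60, 12.50 and 12.57 on the arrays labelled shHLX, against 12.38, 12.37 and 12.36 on the shControl arrays. That is a ratio of 1.14 (1.06 to 1.22) with separated groups (limma adjusted p = 0.051). The dimmer probe set gave 11.90, 11.80 and 11.91 against 11.65, 11.67 and 11.57 in controls, a ratio of 1.18 (1.09 to 1.28). When all probe sets were tested, this one passed (limma adjusted p = 0.0331 over 21789 probe sets).

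Ndrg1 and P4ha2 had larger ratios and more spread. Ndrg1, a stress-induced gene linked to differentiation, gave 12.73, 12.57 and 12.56 in shHLX cells, against 12.46, 12.37 and 12.34 in control cells (ratio 1.17, 1.06 to 1.30, limma adjusted p = 0.0773). Array shHLX 1 stood above the other shHLX arrays. P4ha2, a subunit of the enzyme that hydroxylates prolines in collagen, gave 7.35, 7.07 and 7.22, against 6.89, 6.98 and 6.95 in controls. Its ratio of 1.21 (1.07 to 1.36) did not pass (limma adjusted p = 0.0799), and it is a dim probe set. The sister subunit P4ha1 gave 11.23, 11.23 and 11.34, against 11.22, 11.19 and 11.19, with the groups just separated and shHLX 3 highest (ratio 1.05, 0.97 to 1.13).

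Ero1a encodes the oxidase that drives disulphide formation in the endoplasmic reticulum. Its signals were 13.12, 13.14 and 13.11 on the arrays labelled shHLX, against 13.02, 13.00 and 13.01 on the shControl arrays. The SD was 0.011 in each group (n = 3), the groups were separated, and the ratio was 1.08 (1.01 to 1.15, limma adjusted p = 0.167). The remaining 4 genes of this role had overlapping groups. They were the demethylase gene Kdm3a (ratio 1.07, 0.98 to 1.17), Ankrd37 (1.04, 0.93 to 1.16), the vasodilator peptide gene Adm (0.97, 0.87 to 1.07) and the transcriptional repressor gene Bhlhe40. Bhlhe40 was the most variable of the 31, with an SD of 0.154 in shHLX cells and 0.258 in control cells, so its ratio of 1.17 ran from 0.94 to 1.44. In this role 6 of 12 genes lay wholly above the controls, against 14.7% of all genes and 24.7% of those above the median signal, and 2 lay wholly below, against 11.4% of all genes. The median difference was 0.11.

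HIF-1 binds DNA at a core of A or G followed by CGTG, the hypoxia response element. The promoters of the called genes and of Bnip3 are printed from RefSeq (GRCm38.p6), each running from 250 bases before the annotated start to 50 after it. They are shown to mark where the element occurs in the called genes, with Bnip3 as the uncalled gene nearest to the threshold. Capitals mark ACGTG or GCGTG on either strand, so that CACGT and CACGC are also marked. Hif1a lies at chr12:73907617-73907916 on the plus strand, Egln1 at chr8:124949205-124949504 on the minus strand and Bnip3 at chr7:138909457-138909756 on the minus strand. Ddit4 lies at chr10:59951721-59952020 on the minus strand and Car9 at chr4:43506776-43507075 on the plus strand. Slc2a3 has no entry in the table used.
Hif1a: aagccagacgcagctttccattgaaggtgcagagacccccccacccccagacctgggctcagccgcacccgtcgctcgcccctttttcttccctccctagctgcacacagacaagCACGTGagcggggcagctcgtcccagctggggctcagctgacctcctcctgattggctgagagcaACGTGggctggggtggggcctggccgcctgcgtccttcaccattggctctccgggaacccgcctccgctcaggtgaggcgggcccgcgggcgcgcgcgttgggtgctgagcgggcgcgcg
Egln1: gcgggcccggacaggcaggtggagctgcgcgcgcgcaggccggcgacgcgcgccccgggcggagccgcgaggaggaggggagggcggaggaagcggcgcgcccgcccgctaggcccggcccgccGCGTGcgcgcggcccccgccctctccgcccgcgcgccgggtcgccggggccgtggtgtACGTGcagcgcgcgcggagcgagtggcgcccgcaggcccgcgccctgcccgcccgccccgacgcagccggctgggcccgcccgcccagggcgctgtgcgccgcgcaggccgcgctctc
Bnip3: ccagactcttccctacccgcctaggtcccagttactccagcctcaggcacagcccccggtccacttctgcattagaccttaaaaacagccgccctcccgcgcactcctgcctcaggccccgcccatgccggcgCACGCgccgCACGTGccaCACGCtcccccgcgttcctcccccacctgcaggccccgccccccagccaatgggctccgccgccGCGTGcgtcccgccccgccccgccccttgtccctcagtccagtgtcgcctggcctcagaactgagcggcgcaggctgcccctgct
Ddit4: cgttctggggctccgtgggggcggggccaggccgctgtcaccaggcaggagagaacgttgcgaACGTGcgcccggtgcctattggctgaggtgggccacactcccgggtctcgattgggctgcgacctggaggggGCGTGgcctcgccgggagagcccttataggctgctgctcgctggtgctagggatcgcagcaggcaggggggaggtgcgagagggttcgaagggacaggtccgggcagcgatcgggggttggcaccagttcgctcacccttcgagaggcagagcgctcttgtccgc
Car9: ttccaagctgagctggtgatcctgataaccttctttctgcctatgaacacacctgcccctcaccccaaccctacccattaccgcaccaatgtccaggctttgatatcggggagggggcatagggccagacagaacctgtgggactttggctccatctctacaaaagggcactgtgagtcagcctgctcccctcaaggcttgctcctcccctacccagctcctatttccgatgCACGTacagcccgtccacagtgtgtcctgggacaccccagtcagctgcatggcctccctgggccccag

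The Car9 window holds 1 match, which starts at position -18, where -1 is the base just before the annotated start. The human CA9 promoter is known for such an element at a like place. The windows of Egln1 and Ddit4 hold 2 matches each, that of Hif1a 3 and that of Bnip3 5, counting each strand. In Hif1a and Bnip3 a pair of these overlap as CACGTG, which is also the E-box read by other helix-loop-helix factors. Of the 31 listed genes with a promoter in the table, 29 (93.5%) had a match in at least 1 window, against 46.7% of all genes in it. By window, 35 of 44 (79.5%) had a match, against 43.8% of all promoters. These windows are rich in G and C: 65.9% of them hold at least 60% G and C, against 29.5% of all promoters. Among windows that rich, 89.7% of those of the listed genes and 69.2% of all had a match. Car9 fell and Hif1a, Egln1 and Ddit4 rose, each with a match in its window. With a match in 93.5% of the listed genes, this cannot tell whether the element goes with either direction. A match of these letters does not show that HIF-1 binds there.

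Glucose enters through SLC2A transporters, and the pair measured differed in their values. Slc2a3 (GLUT3, a high-affinity transporter) gave 7.64, 7.61 and 7.75 on the arrays labelled shHLX, against 7.43, 7.38 and 7.41 on the shControl arrays. The groups were separated, and the rise of 1.20-fold (1.10 to 1.30, limma adjusted p = 0.0243) was the largest among the called rises. Its probe set is dim: the group means of 7.67 and 7.41 lie near the median gene's mean signal of 7.395. Both are below the highest stromal marker means, 7.83 with the Hlx hairpin and 7.92 with the control hairpin. Slc2a1 (GLUT1) gave 11.90, 11.87 and 11.87 with the Hlx hairpin, against 11.93, 11.95 and 11.73 with the control hairpin. A low shControl 3 widened the control group, and the ratio was 1.01 (0.91 to 1.12). Whether the responses of these transporter genes differ from each other was not tested.

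Of the 10 glycolytic enzyme genes measured, 0 were called by limma, against 3.75% of all genes tested called higher and 2.43% called lower. Among the probe sets used, Hk2 alone had an unadjusted limma p under 0.05, against 19.4% of all genes tested. The dimmer Hk1 probe set, given below and not the one used here, had an unadjusted limma p of 0.00581. The median difference of the 10 enzyme genes was 0.04 on the log2 scale. Among the alternatives, an intensity trend called Hk2 and Ldha, leaving out genes below the median signal called Hk2, and the others called 0 of them. Hk2, the hexokinase induced by HIF-1, gave 9.55, 9.58 and 9.69 in shHLX cells, against 9.45, 9.50 and 9.39 in control cells (ratio 1.12, 1.02 to 1.22, limma adjusted p = 0.162). Ldha, which turns pyruvate into lactate, gave 13.48, 13.50 and 13.48, against 13.35, 13.43 and 13.39 (ratio 1.07, 0.999 to 1.14, limma adjusted p = 0.268). Pkm, the pyruvate kinase gene, gave 12.93, 12.94 and 12.90, against 12.86, 12.87 and 12.88 (ratio 1.04, 0.97 to 1.11). A dimmer Pkm probe set gave 12.35, 12.41 and 12.33, against 12.27, 12.36 and 12.32, and there the groups overlapped (ratio 1.04, 0.96 to 1.11). On the probe sets used, the groups did not overlap for these 3 enzymes, yet the ratios were small. That is 30% of the 10, against 14.7% of all genes and 24.7% of those above the median signal.

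The steps between them gave ratios near 1. Aldoa, the aldolase gene, gave 13.54, 13.52 and 13.49 on the arrays labelled shHLX, against 13.52, 13.51 and 13.53 on the shControl arrays, a ratio of 0.999 (0.94 to 1.07). The phosphofructokinase genes Pfkl (1.03, 0.96 to 1.11) and Pfkp (0.995, 0.93 to 1.06), the isomerase gene Tpi1 (0.993, 0.92 to 1.08), the kinase gene Pgk1 (1.02, 0.95 to 1.08) and the mutase gene Pgam1 (1.04, 0.97 to 1.11) had overlapping groups. For these 6 genes the 95% intervals of the ratio ended at 0.92 at the lowest and 1.11 at the highest. Pgk1 and Pgam1 each have 3 probe sets, of which a pair gave identical values, so signal from near-identical gene copies is possible there; their ratios were 1.02 and 1.04 on every probe set.

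Hk1 depended on which of its probe sets was read. The brightest gave 12.90, 13.08 and 13.04 in shHLX cells, against 13.09, 12.98 and 13.01 in control cells, a ratio of 0.99 (0.89 to 1.09). That probe set is tied to Hk1 by 1 sequence record only, which the annotation also gives to 16 probe sets that name the ribosomal protein gene Rpl17 beside Hk1, and those 16 differed by -0.03 to 0.01 on the log2 scale. The other Hk1 probe set, tied to RefSeq transcripts of the gene, gave 11.62, 11.59 and 11.59, against 11.39, 11.49 and 11.39. Its groups were separated, with a ratio of 1.13 (1.05 to 1.22, limma adjusted p = 0.0768 over all probe sets). Taking the brightest probe set with a RefSeq transcript for every gene left the counts at 4 higher and 1 lower and moved the median difference to 0.09.

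Regulators of the pathway gave no called gene. Pdk1, the kinase that holds pyruvate out of the mitochondrion, gave 9.96, 9.97 and 10.03 on the arrays labelled shHLX, against 10.03, 10.03 and 10.04 on the shControl arrays (ratio 0.97, 0.91 to 1.04). Pfkfb3, whose product makes an activator of phosphofructokinase, had a ratio of 1.06 (0.98 to 1.14), and its sister Pfkfb4 one of 0.99 (0.92 to 1.05). All 3 had overlapping groups.

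**Figure D3:**
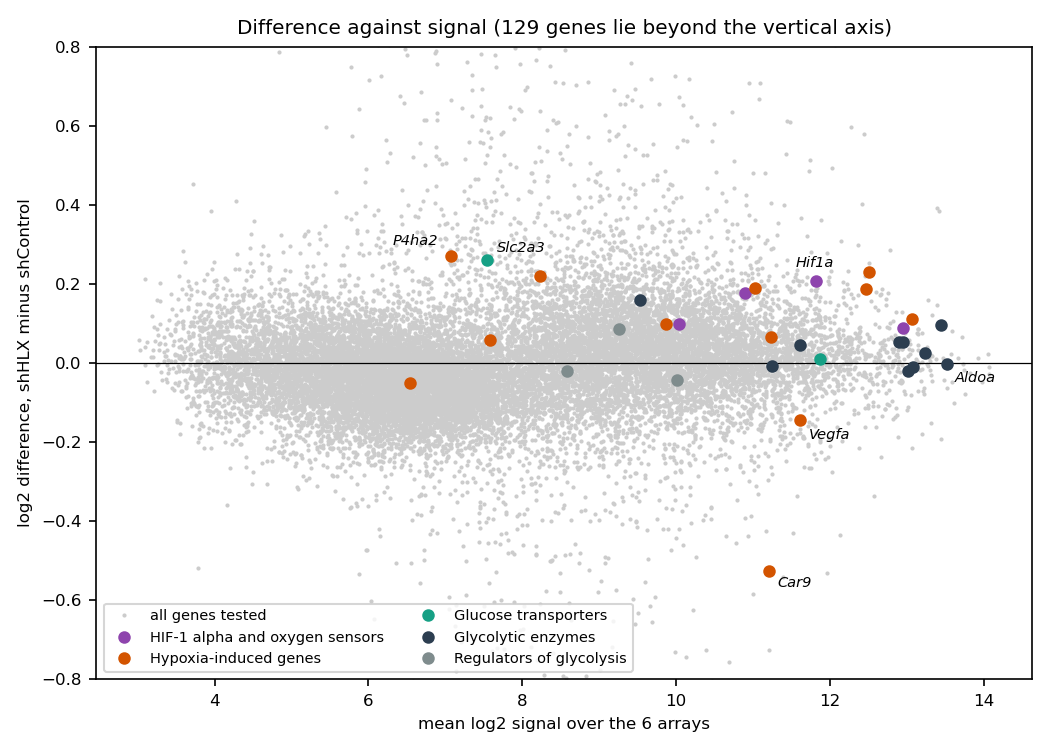
The log2 difference, shHLX minus shControl, against the mean log2 signal over the 6 arrays, for all 19938 genes tested (grey) and the 31 measured genes by role. The glycolytic enzymes lie between -0.02 and 0.16 at signals up to 13.52, and Car9 lies at -0.53. Beyond the vertical axis, which ends at 0.8 in each direction, fall 129 of the grey points.

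Other genes of the same pathways were read from 5 lists, of which 81 of 92 entries were measured. Of these, 8 were called higher (9.88%) and 2 lower, against the 3.75% and 2.43% of all genes tested. Of the 81 genes, 64 lie above the median gene's mean signal, and among all genes above that median 6.17% were called higher. The falls were compared with all genes tested only. The lists were chosen with earlier results of these data known, so these shares describe the lists and do not test them. Hypoxia-induced genes outside the 34 held 6 of the rises among 32 measured and 0 falls. Hmox1, which encodes the haem-degrading enzyme, gave 8.63, 8.61 and 8.61 on the arrays labelled shHLX, against 7.78, 7.92 and 7.77 on the shControl arrays, a rise of 1.74-fold (1.60 to 1.89, limma adjusted p = 0.000108). The stanniocalcin genes, which encode secreted glycoproteins, rose together. Stc1 gave 7.43, 7.04 and 7.32 in shHLX cells, against 6.57, 6.44 and 6.42 in control cells (1.72-fold, 1.47 to 2.02, limma adjusted p = 0.00277). Stc2 gave 7.83, 7.77 and 7.87, against 7.01, 7.37 and 7.01 (1.62-fold, 1.38 to 1.89, limma adjusted p = 0.00502). Both probe sets are dim. The Stc1 means (7.26 and 6.48) and the Stc2 control mean (7.13) lie below the median gene's mean signal of 7.395. These 3 genes also respond to stresses other than low oxygen.

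Smaller rises were those of the transferrin receptor gene Tfrc (1.28-fold, 1.18 to 1.40), the sterol-sensing regulator gene Insig2 (1.15-fold, 1.07 to 1.24) and the cyclin G2 gene Ccng2 (1.19-fold, 1.09 to 1.31). Insig2 lost its call without any 1 array except shHLX 2 (limma adjusted p up to 0.134), and Ccng2 without any 1 except shControl 1 (up to 0.177). Next in this list were the mitochondrial protein gene Fam162a (difference 0.19, limma adjusted p = 0.055) and Fos (-0.20, 0.116), neither called.

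The largest change in the pathway lists was that of Slc2a6, another member of the glucose transporter family, known in macrophages for an intracellular, lysosomal location. It gave 10.43, 10.46 and 10.44 on the arrays labelled shHLX, against 9.36, 9.47 and 9.37 on the shControl arrays. All shHLX values lay about a log2 unit above the controls, a rise of 2.06-fold (1.91 to 2.22, limma adjusted p = 1.48e-05), called in all 20 alternatives. Adpgk, an ADP-using glucokinase gene, rose 1.13-fold (1.06 to 1.21, limma adjusted p = 0.0464) and lost its call when any 1 array was left out (up to 0.193).

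Both falls in these lists were of isozyme genes of glycolysis. Ldhb, the lactate dehydrogenase subunit of oxidative tissues, gave 6.80, 6.87 and 6.54 in shHLX cells, against 7.38, 7.29 and 7.40 in control cells. It fell to 64.9% of control (56.6% to 74.5%, limma adjusted p = 0.00458), on a dim probe set. Eno3, the enolase of muscle, gave 8.84, 8.94 and 8.91, against 9.22, 9.19 and 9.27, and fell to 79.5% of control (73.6% to 86.0%, limma adjusted p = 0.00602). Tigar (difference 0.19, limma adjusted p = 0.118) and Pfkfb2 (0.19, 0.122) came next without passing.

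**Figure D4:**
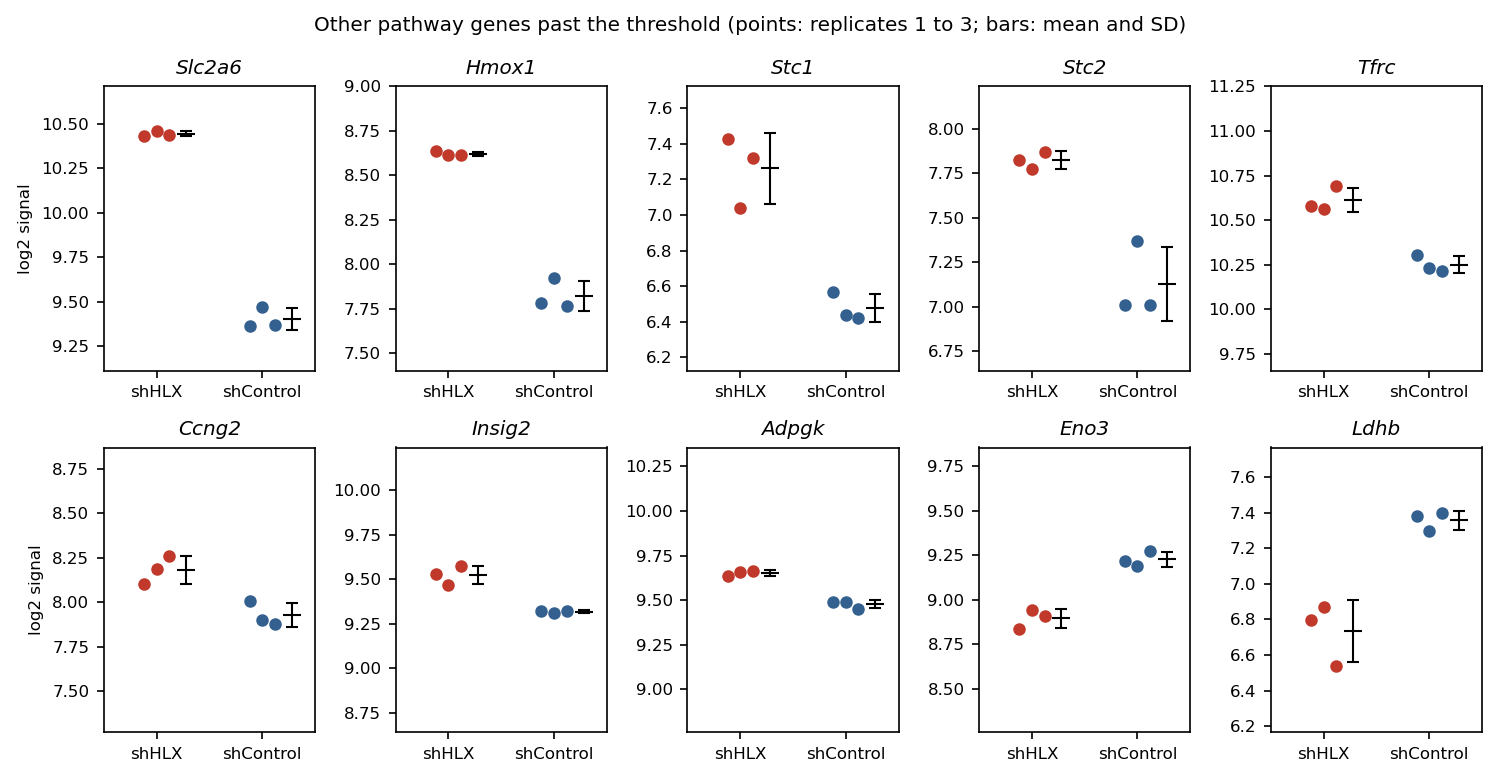
The log2 signal on each array of the 10 genes outside the 34 that passed limma in the pathway lists, shHLX arrays in red and shControl arrays in blue, with the mean and SD of each group as black bars. All panels span the same height on the log2 scale. Slc2a6, Hmox1, Stc1 and Stc2 show the widest gaps upwards, and Ldhb and Eno3 lie lower on the shHLX arrays.

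The 3 remaining lists held no called gene: 15 other genes of HIF control, 10 of pyruvate entry into mitochondria and 6 of the pentose phosphate route, with 4, 0 and 2 at an unadjusted p under 0.05 by limma, against 19.4% of all genes tested. Epas1, which encodes the alternative alpha subunit HIF-2 alpha, read lower on the arrays labelled shHLX (difference -0.18, limma adjusted p = 0.0969). The coactivator gene Ep300 read higher (0.13, 0.135), while Arnt, the partner of HIF-1 alpha, differed by 0.01 and Vhl, which encodes the part of the ubiquitin ligase that recognises it, by 0.10. Taldo1 (0.21, 0.0527) and Rpe (0.15, 0.138) of the pentose phosphate route, and Pdp1 (0.08, 0.382) and Mpc1 (-0.07, 0.427) of pyruvate entry, came closest in their lists.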

How the data were processed

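The authors deposited 1 table of log2 signals of 35556 probe sets on 6 arrays. Per the submitters' processing notes, the deposited log2 values were made with RMA (background correction, equalised array distributions, probes summarised per probe set) and Affymetrix Power Tools 1.178. Per the labels' protocols, 10 ng of RNA was amplified before labelling. The genome build behind the probe sets is not stated in the sources used.

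Of the probe sets, 21789 name exactly 1 gene, and taking the brightest per gene gave 19938 genes, with dim ones kept. The comparison used limma 3.58.1 under R 4.3.3 (lmFit and eBayes, two-sided, shHLX minus shControl, Benjamini-Hochberg adjustment over all genes, threshold 0.05). Ratios are of linear signals with limma's 95% confidence interval, and the code was tested on simulated data. Nothing says whether replicates were separate transductions, so the p-values cover the spread between these samples alone, which may be technical. Array number limits the precision.

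Members and lists were chosen with earlier results of these data known. Named genes are all members, the called genes of each pathway list and the next 2 by p. Arnt and Vhl were named after their values were seen. Signals were given by array for called or non-overlapping members, the oxygen sensors and the brightest of each role. Deviations of same-numbered arrays from their group means correlated at -0.17, 0.13 and -0.15. With 3 arrays per group these values cannot show whether the replicates were made in pairs, and the fit used no pairing. Figures used matplotlib 3.10.9 in Python 3.11.15.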

Additional observations from a re-analysis of the deposited data

How the results depend on the processing

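Over 20 alternatives (1 of them, the probe set with a RefSeq transcript, chosen after seeing the data), Car9, Slc2a6, Hmox1, Tfrc and Eno3 kept their direction and call, Hlx stayed uncalled, and no called gene changed direction. The count of members called higher was 4 with all arrays and 2 after a second quantile normalization (3.59% of all genes called higher), 8 of 29 with genes below the median signal left out (13.0%), 11 with an intensity trend (7.21%), 7 with array weights (4.95%), 7 at an adjusted p under 0.10 (5.44%), and 0 with shControl 1 and shHLX 3 left out together (2.30%). The count was 6 with the lowest 25% of mean signal left out (6.26%). It was 3 with a variance prior made robust to outlying genes (3.57%), where Ddit4 lost its call. The counts of 6, 7, 8 and 11 came in settings where more of all genes were called higher too, against 3.75% with the settings of the report. Averaging over probe sets gave 5 members called higher, where 3.73% of all genes were. Testing every probe set also gave 5 (3.77%). With the replicate number as a block the count of members called higher was 0 (2.49%). Whether the numbers pair the arrays is not known. Leaving out 1 array gave 0 to 2 (2.21% to 2.73%). Members called lower were 2 of 29 with genes below the median signal left out, where 7.71% of all genes were called lower, and 2 of 31 with an intensity trend (4.13%). The median difference of 0.07 became 0.0835 with arrays centred on the median, 0.0804 with array weights, 0.0851 with all probe sets tested, 0.0851 with the RefSeq probe sets, and 0.0611 to 0.0793 with 1 array left out. Pathway genes called higher, 8 with all arrays, numbered 14 of 64 with genes below the median signal left out, 16 with an intensity trend, 4 without variance moderation (2.67% of all genes), 5 with shControl 1 and shHLX 3 left out together, and 5 to 6 with 1 array left out. The shares of all genes in the other settings are those given above. Those called lower numbered 1 without variance moderation (1.53% of all genes). The cause of these moves was not tested, except that fewer arrays or fewer genes enter some fits. Absent detection values limit what dim probe sets show.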
